A study of Mus musculus with 12 samples.

Results

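Skeletal muscle transcripts were measured in each of the 12 tibia shaft RNA samples of the series, and the other genes were then described by how they moved with them. The muscle score of a mouse was the mean, over the 5 genes Acta1, Ckm, Myh4, Tnnt3 and Mylpf, of log2(CPM + 1), where CPM is a gene's share of the counts on genes in a mouse times 1000000. All 12 mice had a score. Of the 47069 genes in the count matrix, 15168 had 10 or more counts in every mouse, and these were ranked by Spearman's rho between their log2(CPM + 1) and the score over the 12 mice, after each group was centred on its own mean. A gene was said to follow the score up at a rho of 0.8 or more, which 830 genes did (5.47% of the genes ranked), and down at a rho of -0.8 or less, which 1247 genes did (8.22%). These genes were chosen by their rho, so the rho and slope of a chosen gene describe the choice and carry no test, and nothing is read from the percentages.

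The study set the loss of sclerostin, a brake on bone formation made by osteocytes, against a dominant collagen mutation that causes severe osteogenesis imperfecta. The mice were male and 8 weeks old, with 4 in each of 3 groups, and each sample was 1 mouse. Jrt;Sost-ko mice carried Col1a1Jrt/+ and Sost-/-. Jrt;Sost-het mice carried Col1a1Jrt/+ by their labels, and that they were heterozygous for the Sost knockout is known from the study's methods only. WT mice carried neither allele and came from a separate colony, so that genotype and colony cannot be told apart in any comparison with them. All mice were on a mixed FVB and C57BL/6 background, and all tibia shafts were dissected and flushed of marrow before RNA extraction. Bone genes were high in every mouse, with the summed CPM of 14 osteoblast genes ranging from 23660 to 70888 over the mice, but genes of marrow cells were also high after the flush, with the summed CPM of 11 erythroid genes between 15869 and 31752. Sost itself was at 26.6 to 73.6 CPM in the Jrt;Sost-het and WT mice and at 0.328 to 1.26 CPM in the Jrt;Sost-ko mice.

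Skeletal muscle fibres are packed with a small set of proteins that no bone cell needs in quantity. Actin and myosin filaments slide past each other in the sarcomere, troponin gates that movement by calcium, the sarcoplasmic reticulum stores and releases the calcium, and creatine kinase buffers the ATP that it costs. Muscles are anchored along the shaft of the tibia through tendon and periosteum, so a dissected shaft can carry muscle fibres on its surface, and the fast fibres of the mouse hind limb are dominated by the myosin heavy chain gene Myh4. Where the muscle transcripts of these samples came from was not tested. In a bulk sample, fewer cells of a type and less RNA per cell of that type cannot be told apart.

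The sequences just upstream of the score genes are given here because these genes define the score and moved together from mouse to mouse. They are the 250 bases before the start of each gene in RefSeq (build GRCm38.p6), read 5′ to 3′ on the strand of the gene. Capitals mark the E-box CAGCTG, the sequence TATAAA, the MEF2 site and the CArG box, searched on both strands. CAGCTG is a form of the E-box CANNTG bound by the MyoD family, MEF2 proteins act with that family in muscle genes, and the CArG box is bound by serum response factor. The table held 4 of the 5 score genes, without Tnnt3.
Acta1, chr8:123894776-123895025, minus strand: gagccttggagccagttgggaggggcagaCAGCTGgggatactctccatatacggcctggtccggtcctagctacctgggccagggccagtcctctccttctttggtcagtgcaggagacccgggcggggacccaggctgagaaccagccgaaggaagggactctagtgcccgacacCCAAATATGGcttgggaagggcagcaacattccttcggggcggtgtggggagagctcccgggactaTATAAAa
Myh4, chr11:67237562-67237811, plus strand: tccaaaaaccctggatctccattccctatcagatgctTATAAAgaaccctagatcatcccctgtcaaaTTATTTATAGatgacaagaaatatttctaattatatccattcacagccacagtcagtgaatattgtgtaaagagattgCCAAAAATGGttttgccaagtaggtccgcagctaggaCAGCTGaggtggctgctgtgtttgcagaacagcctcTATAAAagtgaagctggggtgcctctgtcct
Ckm, chr7:19410844-19411093, plus strand: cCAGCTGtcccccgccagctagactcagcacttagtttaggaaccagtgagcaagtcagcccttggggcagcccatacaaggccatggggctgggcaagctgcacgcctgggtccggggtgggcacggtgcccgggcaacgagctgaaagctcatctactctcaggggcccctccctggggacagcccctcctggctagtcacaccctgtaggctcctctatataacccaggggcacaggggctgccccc
Mylpf, chr7:127211358-127211607, plus strand: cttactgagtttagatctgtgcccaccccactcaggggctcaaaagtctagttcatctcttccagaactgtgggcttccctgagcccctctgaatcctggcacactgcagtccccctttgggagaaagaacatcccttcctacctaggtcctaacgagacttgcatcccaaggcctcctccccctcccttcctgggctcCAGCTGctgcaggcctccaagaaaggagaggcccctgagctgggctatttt
All 4 held CAGCTG. A CArG box was in the windows of Acta1 and Myh4, as was TATAAA. Myh4 also held the MEF2 site, and 1 of its 3 matches to TATAAA lies inside that site on the other strand. The windows of Ckm and Mylpf lie within the gene spans of the GENCODE annotation, which has earlier starts for both genes. Among the 40 genes with a promoter entry that followed the score up with a slope of 0.5 or more (the slope is defined with the values), 47.5% held CAGCTG, against 14.9% of the 604 such entries among all genes that followed up and 12.8% of all 27025 promoters. The MEF2 site was in 15% of those 40, in 4.8% of the 604 and in 3.01% of all promoters, and the CArG box was in 5%, 2.81% and 1.4%. Of the 10863 promoters of ranked genes, 11.8% held CAGCTG, 1.66% the MEF2 site and 1.13% the CArG box. TATAAA was in 15% of the 40, in 8.61% of the 604, in 6.58% of the promoters of ranked genes and in 13% of all promoters, and the general E-box CANNTG was in 72.5%, 62.3%, 57.5% and 66%. These are matches of letters, not measured binding.

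Mice of the same genotype differed widely in the score. In the Jrt;Sost-het mice it was 7.99, 9.42, 10.15 and 11.62, in the Jrt;Sost-ko mice 9.96, 8.04, 10.47 and 1.89, and in the WT mice 8.13, 4.71, 10.33 and 11.63 (mice 1 to 4 of each group). Jrt;Sost-ko mouse 4 and WT mouse 2 were far below the rest, and Jrt;Sost-het mouse 4 and WT mouse 4 were highest and nearly equal. Acta1, the actin of skeletal muscle thin filaments, was at 281, 688, 1226 and 3070 CPM in the Jrt;Sost-het mice, at 1125, 213, 1335 and 1.90 CPM in the Jrt;Sost-ko mice and at 273, 27.3, 1363 and 3710 CPM in the WT mice. The highest value was 1949 times the lowest, and each group held mice of low and of high values. Ckm, the creatine kinase of muscle, was at 233, 653, 1087 and 3068 CPM, then 975, 251, 1255 and 0.952 CPM, then 241, 18.5, 1253 and 2667 CPM in the same order of mice. Myh4, the fast myosin heavy chain, was at 463, 1202, 2509 and 5805 CPM, then 2033, 435, 2935 and 1.48 CPM, then 572, 24.4, 2057 and 6560 CPM. Both ordered the mice almost as Acta1 did. Tnnt3, the fast troponin T that ties the troponin complex to tropomyosin, ranged from 3.09 CPM in Jrt;Sost-ko mouse 4 to 3377 CPM in Jrt;Sost-het mouse 4. Mylpf, the regulatory light chain of fast myosin, ranged from 11.3 to 1649 CPM between Jrt;Sost-ko mouse 4 and WT mouse 4. Mylpf was the least steep of the 5, with 344 counts in Jrt;Sost-ko mouse 4, where Ckm had 29 counts, Myh4 45 and Acta1 58.

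**Figure D1:**
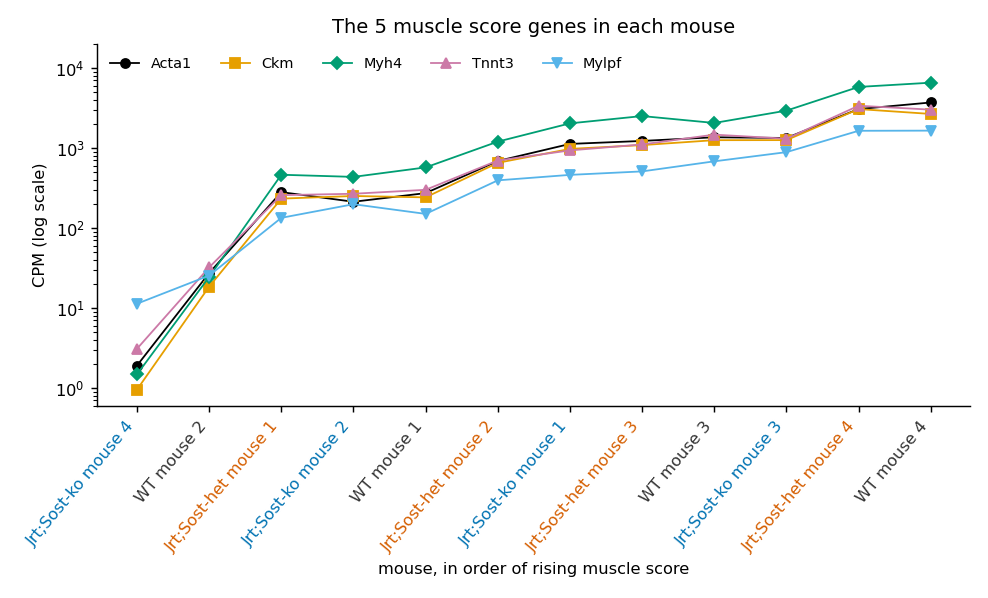
CPM on a log axis of the 5 score genes in each of the 12 mice, ordered by the muscle score, with mouse names coloured by group. The 5 lines run from Jrt;Sost-ko mouse 4 (Acta1 at 1.90 CPM) to WT mouse 4 (Acta1 at 3710 CPM), and the 3 groups are mixed along the order. The lines lie farthest apart in Jrt;Sost-ko mouse 4, from Ckm at 0.952 CPM to Mylpf at 11.3 CPM.

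The 5 score genes made up 0.00187% of all counts of Jrt;Sost-ko mouse 4 and 1.76% of those of WT mouse 4. The 85 genes of 8 skeletal muscle lists together made up 0.0296% to 4.42%. Total counts on genes were between 24366061 and 44418863 per mouse. The mean score was 9.79 ± 1.51 (SD, n = 4) in Jrt;Sost-het, 7.59 ± 3.94 in Jrt;Sost-ko and 8.70 ± 3.03 in WT mice, and the groups overlapped. The difference was -2.20 for Jrt;Sost-ko minus Jrt;Sost-het (exact two-sided permutation test over 70 arrangements, p = 0.429), 1.09 between Jrt;Sost-het and WT mice (exact p = 0.686) and -1.11 between Jrt;Sost-ko and WT mice (exact p = 0.629), with an adjusted p of 0.686 for all 3 pairs. The smallest p this design allows is 0.0286. Without Jrt;Sost-ko mouse 4 the first difference was -0.306 and the last 0.787, and without WT mouse 2 the difference between Jrt;Sost-het and WT mice was -0.24, so the direction of the last and of the second depended on 1 mouse.

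Of 4 measures of the libraries, the share of ambiguous reads was the one whose relation to the score passed the test. Over the 12 group-centred mice, Spearman's rho of the score with total counts was 0.175 (Pearson's r 0.439; exact permutation of mice within groups, adjusted p = 0.644 for rho and 0.319 for r, over 5 measures, of which the share of mitochondrial counts is described with its genes). With the share of reads on no gene rho was 0.259 (r 0.245; exact permutation, adjusted p = 0.592 and 0.476), and with the number of genes that had a count it was 0.664 (r 0.733; exact permutation, adjusted p = 0.127 and 0.0758). With the share of reads assigned to more than 1 gene rho was -0.783 (r -0.722; exact permutation, adjusted p = 0.0260 and 0.0221), although that share only ran from 0.602% to 0.674%. Without Jrt;Sost-ko mouse 4 and WT mouse 2, the 2 mice farthest from the median score, r was -0.210 with total counts, -0.0444 with reads on no gene, 0.442 with genes that had a count and -0.544 with ambiguous reads. The rho with ambiguous reads ranged from -0.836 to -0.482 as each mouse was left out, and its adjusted p was above 0.05 without Jrt;Sost-het mouse 4, Jrt;Sost-ko mouse 1, 3 or 4, or WT mouse 2 or 4. The labels give no library or extraction batch.

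Epidermal transcripts differed between the WT mice. The summed CPM of 10 epidermal genes, among them the keratins Krt5 and Krt14, was 181 in WT mouse 3 and 705 in WT mouse 4, and 12.6 to 24.2 in the other 10 mice. WT mouse 4 had the highest muscle score and WT mouse 3 the highest but 1 of its group, so values that rest on these 2 mice are also given without them, and the part of the epidermal transcripts in the results was not tested. With all 12 mice, 830 genes followed up and 1247 down. Without these 2 mice, 491 and 484 genes did, of which 473 and 440 were among those 830 and 1247. Single mice moved the counts too. Without WT mouse 2, 537 genes followed up and 760 down, and without WT mouse 4, 618 and 682. Without Jrt;Sost-ko mouse 4 as well as WT mouse 2, the 2 lowest in score, 1032 genes followed up and 1007 down, and 552 in each direction were among those found with all mice. The balance of directions also moved with the scaling. With CPM computed over totals without the muscle genes, 984 genes followed up and 826 down, so that 54.4% of the genes that followed went up, against 40.0% with full totals, and all 830 and 823 of the 1247 were shared.

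The slope of a gene was the least-squares change in its log2(CPM + 1) per unit of score. For genes well above 1 CPM, a slope of 1 means about a doubling of CPM where the score rises by 1. Near or below 1 CPM the pseudocount makes the slope smaller, so slopes also depend on abundance. Genes that followed up had a median slope of 0.10, and genes that followed down had a median slope of -0.044. Of the 830 genes up, 51 had a slope of 0.5 or more, 132 a slope between 0.2 and 0.5, and 647 a slope under 0.2. No gene that followed down passed a slope of -0.5, and the steepest was Igkv3-4 at -0.25. Over all 15168 genes ranked, the median rho was -0.16 and the median slope -0.0062. Genes that followed down were the more abundant, with a median of 71.8 mean CPM against 18.2 for genes that followed up and 24.6 for all genes ranked. The score axis took 51.5% of the variance between mice of the same group summed over the genes, 41.4% without the genes of the muscle lists, and 25.8% for the median gene.

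**Figure D2:**
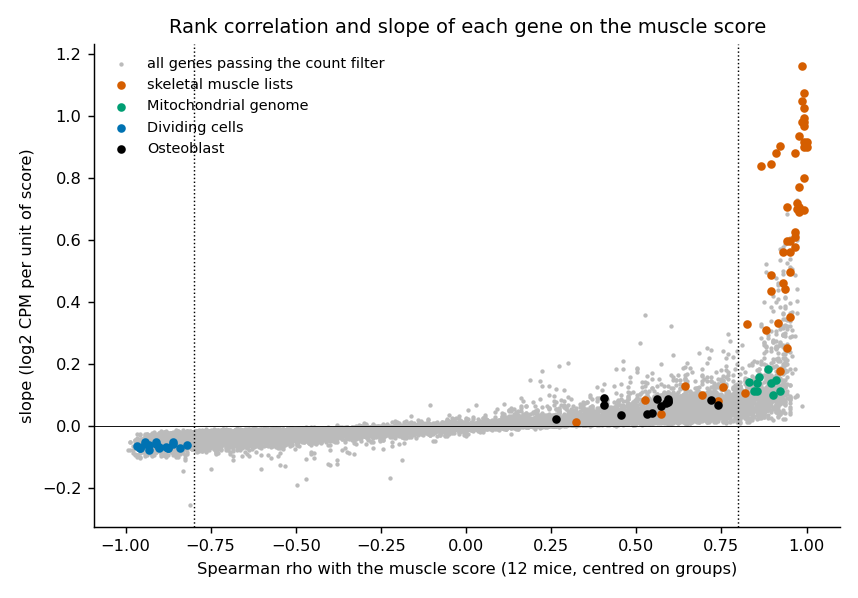
Spearman's rho with the score (x axis, 12 mice centred on groups) against the slope in log2 CPM per unit of score (y axis), 1 point a gene for the 15168 genes ranked, with 4 kinds of gene list in colour and dotted lines at the rho thresholds of 0.8 and -0.8. The genes of the skeletal muscle lists rise along the right edge to a slope of 1.16, while the dividing-cell genes lie at the left edge with slopes between -0.075 and -0.049.

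The contractile apparatus of fast fibres followed the score almost in rank order. All 7 of the fast-fibre sarcomere genes ranked followed up, with a median rho of 0.99 and a median slope of 0.90. Tnni2, the inhibitory subunit of fast troponin, had a rho of 1 and was at 101, 281, 415 and 1348 CPM in the Jrt;Sost-het mice, at 348, 115, 514 and 1.97 CPM in the Jrt;Sost-ko mice and at 119, 12.7, 594 and 1107 CPM in the WT mice. The other subunit that gates contraction, the calcium sensor Tnnc2, had a slope of 0.99, and the alkali light chain Myl1 and the fast actinin Actn3 also had a rho of 0.99. The scaffold of the sarcomere moved likewise, with all 9 ranked members up and a median slope of 0.70. Ttn, the elastic filament that spans the sarcomere from disc to midline, had a slope of 0.98 and Neb, the ruler of the thin filament, of 0.94.

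The genes of excitation and calcium handling formed the third block of muscle genes, with 12 of 12 ranked members up, a median rho of 0.96 and a median slope of 0.60. Casq1, which holds calcium in the sarcoplasmic reticulum, had a rho of 1. It was at 44.7, 139, 161 and 606 CPM in the Jrt;Sost-het mice, at 164, 42.0, 308 and 0.361 CPM in the Jrt;Sost-ko mice and at 51.5, 5.95, 252 and 664 CPM in the WT mice. Atp2a1, the pump that returns calcium to the store, had a slope of 1.05, and Pvalb, the cytosolic calcium buffer of fast fibres, of 0.98. Of 10 ranked genes for muscle isoforms of energy metabolism, 9 followed up. Among them were Pygm, the glycogen phosphorylase of muscle (slope 0.71), Eno3, the muscle enolase (0.62), and Mb, the oxygen store myoglobin (0.84). The glucose transporter Slc2a4, which adipose tissue also makes, did not pass the threshold, with a rho of 0.69 and a slope of 0.10.

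Slow-fibre genes were few and low. Of the 8 listed, 4 were ranked and 1 followed up, which was Mybpc1, a myosin-binding protein at 0.394 to 765 CPM over the mice. Without the count filter 3 of the 8 had a rho of 0.8 or more, namely Mybpc1, Myoz2 and Myl3, and the median rho of the 8 was 0.70. Tnnt1, the slow troponin T, stayed between 4.74 and 9.57 CPM and had a rho of 0.32. Per kilobase of exon, Myh4 made up a median of 76.5% of the summed CPM of Myh4, Myh1, Myh2 and Myh7, with a range of 48.2% to 92.3% over the mice. Myh1, another fast chain, made up 6.75% to 43.2%, Myh2 0.909% to 15.3%, and the slow chain Myh7 at most 0.115%. In Jrt;Sost-ko mouse 4 these shares rested on 98 counts, and reads that these near-identical chains share could not be assigned with certainty. Myh4 was first, Myh1 next, then Myh2 and Myh7 in each of the 12 mice.

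Not all muscle genes passed the count filter. Of the 85 genes on the 8 muscle lists, 52 were ranked, of which 45 followed up and 0 down, and all 33 others had fewer than 10 counts in Jrt;Sost-ko mouse 4, while 12 of them had 10 or more in every other mouse. Without the filter, 69 of the 85 had a rho of 0.8 or more. Of 8 genes of the muscle lineage and its satellite cells, Cdh15, an adhesion protein of satellite cells, was ranked, with a rho of 0.74 and a slope of 0.081. Without the filter, 4 of the 8 had a rho of 0.8 or more and had 0 counts in Jrt;Sost-ko mouse 4, namely the transcription factors Myod1, Myog and Myf6 and their cofactor Vgll2. Myf6 reached 15.3 CPM (rho 0.92) and Myod1 4.39 CPM (rho 0.92). At the neuromuscular junction, the acetylcholine receptor subunit Chrnb1 (rho 0.92) and the receptor-clustering gene Rapsn (rho 0.82) followed up, out of 4 ranked genes.

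Among genes off the muscle lists, 785 followed the score up and 18 of them had a slope of 0.5 or more. These 18 include genes known from muscle that the lists did not hold. Eef1a2, the elongation factor of muscle and neurons, ranged from 0.525 to 148 CPM with a slope of 0.73. Nrap, a nebulin-related anchoring protein, had a slope of 0.69, Txlnb of 0.62 and Pkia, an inhibitor of protein kinase A, of 0.61. The imprinted non-coding RNA H19 ranged from 5.68 to 246 CPM with a slope of 0.52. The 51 genes with a slope of 0.5 or more took 0.0133% of all counts of Jrt;Sost-ko mouse 4 and 4.27% of those of WT mouse 4.

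The genes of the mitochondrial genome followed the score as a block. These 13 genes code for core subunits of the respiratory chain and ATP synthase, and muscle is rich in mitochondria. All 10 that were ranked followed up, with a median rho of 0.87 and slopes between 0.10 and 0.18. Their share of the counts ran from 1.13% to 3.78%, and its rho with the score was 0.79. mt-Co1, the catalytic subunit of complex IV, was at 6246, 7258, 6609 and 14756 CPM in the Jrt;Sost-het mice, at 7372, 6007, 7835 and 5472 CPM in the Jrt;Sost-ko mice and at 6172, 5015, 8818 and 10521 CPM in the WT mice. The highest value in each group was in the mouse with the highest score of that group, and in Jrt;Sost-het mouse 4 it was far above the other 3. The respiratory chain genes of the nucleus did not pass the threshold, with 0 of 16 up, although the rho of all 16 was positive (median 0.62) and their median slope was 0.032. That count depended on 1 mouse, since 15 of the 16 followed up without Jrt;Sost-ko mouse 4. The 10 mitochondrial genes all followed up without that mouse, and 6 did without Jrt;Sost-het mouse 1. With Pearson's r in place of Spearman's rho 1 of the 10 followed up, and with CPM without the log 5 did. Mitochondrial genes have near-identical copies in the nuclear genome, and how shared reads were counted is not given in the sources used here.

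Glycolytic genes that all tissues use split in direction. Of 12, 4 followed up and 2 down, and 1 or 2 followed up without any 1 of Jrt;Sost-het mouse 3, Jrt;Sost-ko mouse 1 or 2 and WT mouse 2, 3 or 4. Aldoa, the aldolase that muscle favours, had a slope of 0.27 and was at 634, 964, 1376 and 2886 CPM in the Jrt;Sost-het mice, at 1241, 605, 1309 and 463 CPM in the Jrt;Sost-ko mice and at 658, 491, 1655 and 2548 CPM in the WT mice. Tpi1, Gapdh and Ldha followed up with slopes of 0.13, 0.089 and 0.091. Hk1 and Pfkl, isoforms other than those that skeletal muscle favours, followed down with slopes of -0.049 and -0.026. Lists of other tissues were examined too. Of 12 endothelial genes, 5 followed up, among them the junction gene Cdh5 (slope 0.062) and the VEGF receptor gene Flt1 (0.081), while Vwf went the other way without passing the threshold (rho -0.65). Without WT mouse 2, 2 of the 12 followed up. Of 9 smooth muscle genes ranked, 2 followed up, Synpo2 (slope 0.36) and Smtn (0.036). None of the 9 tendon genes passed the threshold, with rho between 0.20 and 0.77, and none of the 7 periosteal genes did, with rho between 0.31 and 0.76. Of 16 immediate early genes, 4 followed up, namely Fos, Fosb, Egr3 and Nr4a1, but only 1 did without Jrt;Sost-ko mouse 4, WT mouse 2 or WT mouse 4, and 2 did without Jrt;Sost-ko mouse 1 or 3. Of 9 heat shock genes, Hspb1, a small chaperone that muscle makes in quantity, followed up (slope 0.27) and Dnajb1 followed down (-0.049). Of 11 adipocyte genes, Car3, which skeletal muscle also makes, followed up (slope 0.17), and of 12 Wnt target genes Axin2, a feedback inhibitor of the pathway, did (0.10). No ranked member of the lists of connective tissue fibroblasts (10 genes), Schwann cells (8), cardiac muscle (3), epidermis (4), macrophages (10), T lymphocytes (6) or marrow stroma (6) passed either threshold.

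Cell division genes were the clearest block that followed the score down. All 18 of the list were ranked and all 18 followed down, with rho between -0.965 and -0.818 and slopes between -0.075 and -0.049. The list holds genes of mitosis and of the replicative helicase, and both kinds moved alike. The cyclin B1 gene Ccnb1, which drives entry into mitosis, had a slope of -0.071, and the helicase subunit genes Mcm2 and Mcm5 of -0.070 and -0.071. Ccna2, a cyclin of the S and G2 phases that was on no list, had the lowest rho of all genes, -0.993. It was at 341, 339, 326 and 293 CPM in the Jrt;Sost-het mice, at 298, 334, 294 and 423 CPM in the Jrt;Sost-ko mice and at 418, 433, 329 and 256 CPM in the WT mice. In each group the lowest value was in the mouse with the highest score. The summed CPM of the 18 genes was 6732 for Jrt;Sost-ko mouse 4 against 4231 for WT mouse 4. All 18 had a rho of -0.8 or less in full data, 11 without Jrt;Sost-ko mouse 4, 12 without WT mouse 1 or WT mouse 4, and 13 without both mice with epidermal transcripts.

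The sequence upstream of these genes is shown for Ccnb1 and for Cdca3, a regulator of mitotic entry among the 4 lowest in rho. They are RefSeq windows of the same length and build, and capitals mark CCAAT, the box bound by the factor NF-Y, and TTTGAA, a form of the CHR element of cell cycle genes, searched on both strands. The window of Cdca3 lies within the gene span of the GENCODE annotation, which has an earlier start.
Ccnb1, chr13:100786487-100786736, minus strand: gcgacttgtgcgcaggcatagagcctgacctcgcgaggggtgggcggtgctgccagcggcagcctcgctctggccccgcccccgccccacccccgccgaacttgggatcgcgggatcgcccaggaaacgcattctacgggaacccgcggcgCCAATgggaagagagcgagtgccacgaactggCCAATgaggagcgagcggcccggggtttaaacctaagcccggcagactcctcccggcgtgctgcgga
Cdca3, chr6:124829926-124830175, plus strand: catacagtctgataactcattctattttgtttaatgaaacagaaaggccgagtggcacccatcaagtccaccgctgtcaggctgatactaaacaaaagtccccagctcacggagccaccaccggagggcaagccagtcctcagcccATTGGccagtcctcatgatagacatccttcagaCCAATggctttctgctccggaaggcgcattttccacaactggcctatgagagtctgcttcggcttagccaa
CCAAT was in the windows of 14 of the 15 dividing-cell genes with a promoter entry (93.3%), against 42.7% of the 958 entries among genes that followed down, 35.9% of the promoters of ranked genes and 34.5% of all promoters. Among entries of genes that followed up it was in 35.1%, and in 40% of those with a slope of 0.5 or more. TTTGAA was in 33.3% of the 15, in 10.7% of the promoters of ranked genes and in 16.3% of all promoters. Both sequences were chosen for this search after the dividing-cell genes had been seen to follow down.

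Genes of red cells and platelets lay beside the dividing cells. Of 11 erythroid genes, 4 followed down and the rho of all 11 was between -0.937 and -0.727, with a median slope of -0.078. Hbb-bs, an adult beta globin, was at 11574, 11277, 10234 and 7454 CPM in the Jrt;Sost-het mice, at 10449, 11960, 7877 and 12536 CPM in the Jrt;Sost-ko mice and at 15184, 13991, 9984 and 8264 CPM in the WT mice. Klf1, the master regulator of red cell genes, had a slope of -0.083. The erythroid count was 10 of 11 without Jrt;Sost-ko mouse 4, 7 to 9 without 5 other mice (Jrt;Sost-het mouse 1, 2 or 4, Jrt;Sost-ko mouse 2, WT mouse 1), 0 without WT mouse 4 and 1 without both mice with epidermal transcripts. Globin genes come in near-identical copies, so the split of reads between them is uncertain. Of 9 megakaryocyte genes, 5 followed down, with a median rho of -0.83 and a median slope of -0.090, among them the platelet chemokine genes Pf4 and Ppbp (slopes -0.093 and -0.097). Without Jrt;Sost-het mouse 4, Jrt;Sost-ko mouse 4 or WT mouse 2, 2 of the 9 did, and without Jrt;Sost-ko mouse 1 or 2, 8 did. Of 13 neutrophil genes none passed the threshold, although the rho of all 13 was negative (median -0.66), and 7 did without Jrt;Sost-het mouse 1. B lymphocyte genes showed no common direction (median rho -0.021), yet the steepest negative slopes were of immunoglobulin segments. Igkv3-4 was at 14.4 CPM in Jrt;Sost-ko mouse 4 and at 0.821 to 3.22 CPM in the other 11 mice, so that its slope rested largely on 1 mouse. Reads of such segments are shared within their family. Of 25 cytosolic ribosomal protein genes, 2 followed down and the rho of all 25 was negative (median -0.67), and 13 followed down without Jrt;Sost-het mouse 3.

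Among the genes with the lowest rho were several that were on none of the gene lists. Snrnp25, a protein of the minor spliceosome, had a rho of -0.986 and ranged from 17.7 to 25.3 CPM. Rangap1, which drives nuclear transport, had the same rho and ranged from 135 to 196 CPM. Blvrb, the biliverdin reductase of red cells, and Cd24a, a surface protein of blood precursors, both had a rho of -0.979, with slopes of -0.086 and -0.078. At the threshold, the members just inside were Fos and Cntfr at a rho of 0.804 and Afmid and Hbq1b at -0.804. Just outside were Fam57b and Agbl1 at 0.797 and Ly6g and Ermap at -0.797.

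**Figure D3:**
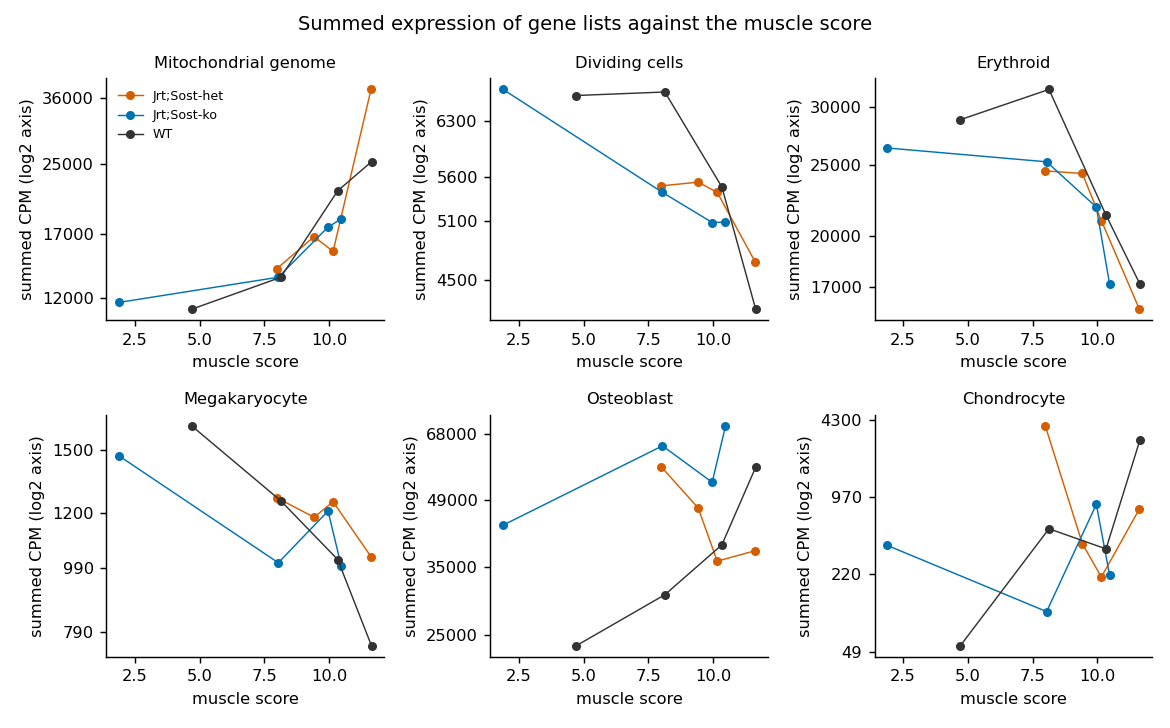
Summed CPM (log2 axis, a scale of its own in each panel) of 6 gene lists against the muscle score, 1 point a mouse, with lines joining the mice of a group. The mitochondrial sum is highest and the dividing-cell and erythroid sums are lowest in the top-scoring mouse of the Jrt;Sost-het and WT groups, while the osteoblast sum falls along the score in Jrt;Sost-het (57864 CPM in mouse 1, 38046 CPM in mouse 4) and climbs in WT mice (23660 CPM in mouse 2, 57720 CPM in mouse 4).

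Bone cell genes did not follow the score, and their values within the groups show how they differed from the blocks above. None of 14 osteoblast, 8 osteocyte, 14 osteoclast or 17 collagen processing genes passed either threshold, with median rho of 0.57, 0.41, 0.27 and 0.55. Within the Jrt;Sost-het mice the median slope of the osteoblast genes was -0.12, with 11 of 14 negative. Within the Jrt;Sost-ko and WT mice it was 0.052 and 0.15, with 14 of 14 positive in both. Over all genes ranked, 56.1% of slopes were negative in Jrt;Sost-het mice, and 45.1% and 42.5% were positive in Jrt;Sost-ko and WT mice. The collagen processing genes had median slopes of -0.14 in Jrt;Sost-het (17 of 17 negative), 0.046 in Jrt;Sost-ko and 0.14 in WT mice (17 of 17 positive). Periosteal genes did the same, at -0.24, 0.16 and 0.21, and osteoclast genes likewise at -0.17, 0.019 and 0.080. Lists outside bone did so too, with medians of -0.19, 0.18 and 0.31 for tendon and -0.035, 0.060 and 0.15 for connective tissue fibroblasts. Medians of smooth muscle and endothelial genes were positive in each group. Each of these slopes rests on 4 mice, in Jrt;Sost-het over a score range of 3.62 and in Jrt;Sost-ko over a range of 8.58 that Jrt;Sost-ko mouse 4 extends. The difference between the groups was not tested. Chondrocyte genes had median slopes of -0.63, -0.047 and 0.60. Their summed CPM was 3833 in Jrt;Sost-het mouse 1 and 2913 in WT mouse 4, and 54.9 to 845 in the other mice.

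The blocks that followed the score kept 1 direction in each group. All 10 mitochondrial genes had positive slopes in each group, with medians of 0.38 in Jrt;Sost-het, 0.077 in Jrt;Sost-ko and 0.18 in WT mice. All 18 dividing-cell genes had negative slopes in each group, with medians of -0.040, -0.057 and -0.086 in the same order. All 11 erythroid genes (medians -0.18, -0.048 and -0.10) and all 9 megakaryocyte genes (-0.078, -0.056 and -0.15) did as well. Fast-fibre genes had median slopes of 1.01, 0.86 and 0.94. The rule used the mice of all 3 groups and the genes of a list share their libraries, so these counts are a description.

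**Figure D4:**
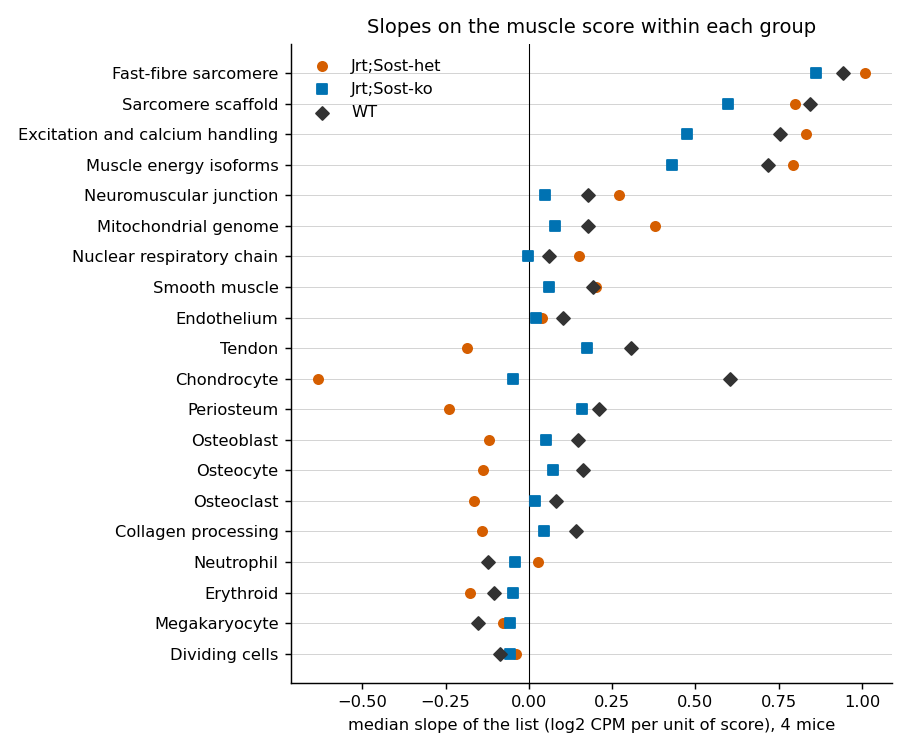
Median slope on the muscle score, in log2 CPM per unit of score, of 20 gene lists within the 4 mice of each group. Muscle, mitochondrial, erythroid, megakaryocyte and dividing-cell lists lie on 1 side of 0 in all groups, while the osteoblast, osteocyte, osteoclast, periosteum, tendon and collagen processing medians lie below 0 in Jrt;Sost-het mice only (for osteoblast -0.12 against 0.052 and 0.15).

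Genes were also chosen by rho on 8 mice and described by their slopes in the other 4, which that choice had not used. The count filter did use all 12 mice, and the sets chosen up held the 5 score genes. With the WT mice left out, 543 genes followed up in the other groups, and 97.8% of them had a positive slope in the WT mice, against 42.5% of all genes. Of 774 genes chosen down, 96.5% had a negative slope there, against 57.5% of all genes. With the Jrt;Sost-ko mice left out, the shares were 84.7% of 1388 genes up (all genes 45.1%) and 81.7% of 2052 genes down (54.9%). With the Jrt;Sost-het mice left out they were 49.8% of 2117 genes up (43.9%) and 66.2% of 2634 genes down (56.1%). The genes up in that last case differed by list. On the muscle lists, with the 5 score genes left out because the score is made of them, 41 of 42 chosen genes had a positive slope in the Jrt;Sost-het mice, but off them 1008 of 2070 (48.7%) did. All 17 dividing-cell genes chosen down on the other groups had a negative slope in the Jrt;Sost-het mice. The Jrt;Sost-het group has the narrowest range of scores, and genes are not independent of each other, so no test was made of these shares. The gene lists were drawn up with earlier results of these data known, so the shares by list are a description.

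**Figure D5:**
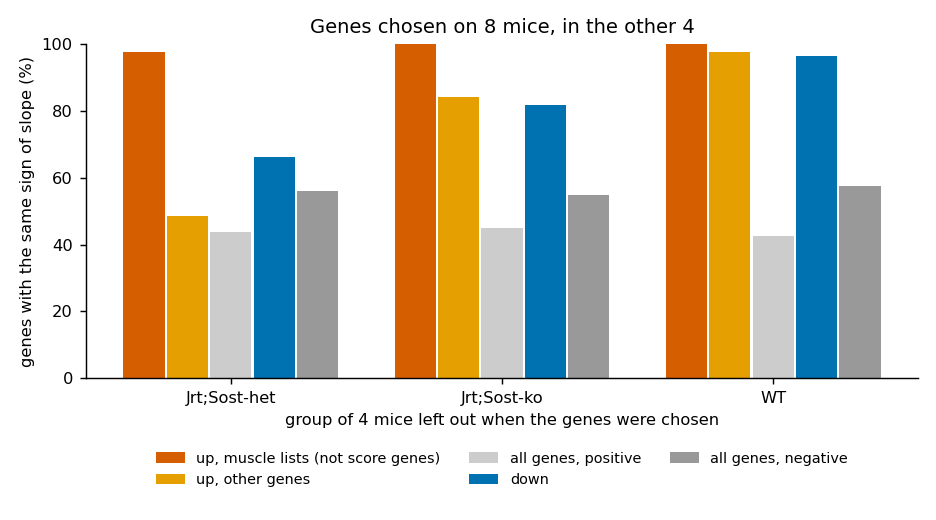
Share (%, from 0) of genes chosen on the 8 mice of 2 groups that had a slope of the same sign in the 4 mice of the group left out, with all genes ranked in grey. Chosen genes of the muscle lists other than the score genes reach 97.6% to 100% in every group left out, while chosen genes off the muscle lists reach 48.7% in Jrt;Sost-het, 84.2% in Jrt;Sost-ko and 97.6% in WT mice.

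The score was then set beside the comparisons between genotypes, which the rule did not use. With edgeR's quasi-likelihood test on the counts, 1 of 16739 genes was called at an adjusted p under 0.05 between the Jrt;Sost-ko group and the Jrt;Sost-het group (0.00597% of the genes tested), 0 of 16775 between Jrt;Sost-het and WT mice (0%) and 1 of 17155 between Jrt;Sost-ko and WT mice (0.00583%). DESeq2 called 15, 0 and 13 genes in these 3 pairs. Between Jrt;Sost-het and WT mice, 359 of the 16775 genes tested had an unadjusted p under 0.05 by edgeR and 403 by DESeq2. Among the 15168 ranked genes the share was 1.91% by edgeR. The gene called in the other 2 pairs was Sost, with a log2 fold change of -5.87 ± 0.49 (SE) against Jrt;Sost-het mice (edgeR adjusted p = 0.0130) and -6.29 against WT mice (edgeR adjusted p = 0.00895). The call was lost against Jrt;Sost-het mice without Jrt;Sost-ko mouse 1, 3 or 4 (edgeR adjusted p = 0.117, 0.138 and 0.0805), and against WT mice without Jrt;Sost-ko mouse 1, 3 or 4 or WT mouse 1 or 3. With the muscle score as a covariate the log2 fold change of Sost was -5.72 and -6.32 (edgeR adjusted p = 0.0438 and 0.00403), and edgeR called no further gene in any pair.

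None of the genes that followed the score was called between genotypes by edgeR, with or without the covariate, or by DESeq2, which was run without it. Of all 15168 ranked genes, edgeR called 1, 0 and 1 and DESeq2 15, 0 and 9 in the 3 pairs. Calls were that rare over all genes, so nothing is read from their absence here. Both the errors and the estimated differences of the genes that followed changed with the covariate. The score genes had SEs between 1.06 and 1.71 on the log2 scale without the covariate and between 0.086 and 0.24 with it. The median log2 difference of the 830 genes up moved from -0.21 to -0.016 for Jrt;Sost-ko minus Jrt;Sost-het, from 0.078 to -0.041 between Jrt;Sost-het and WT mice, and from -0.13 to 0.045 between Jrt;Sost-ko and WT mice. Their median SE fell from 0.22 to 0.17, from 0.30 to 0.15 and from 0.30 to 0.18 in these 3 pairs. For the 1247 genes down the median log2 difference was 0.049, -0.077 and -0.030 without the covariate and -0.032, -0.017 and -0.073 with it. These genes were chosen by their relation to the score, so a smaller error with the score in the model was fixed by the choice. The shift of their median differences follows from their slopes and the score differences between groups, so it is no separate result. For the score genes, the covariate is their own mean. Over all genes ranked, the median SE was 0.112 in both fits for the first pair, 0.122 and 0.104 for the second, and 0.127 and 0.104 for the third. Of the ranked genes, 769 (5.07%) had an unadjusted p under 0.05 without the covariate and 809 (5.33%) with it in the first pair. In the second pair 289 (1.91%) and 458 (3.02%) did, and in the third 563 (3.71%) and 1596 (10.5%).

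The genes the study named in setting Jrt;Sost-ko beside Jrt;Sost-het, which it picked on these samples, did not follow the score. Colgalt2, a collagen glycosyltransferase gene, had a rho of 0.53, Tex15 of -0.56, the phospholipase genes Pla1a and Pla2g5 of -0.14 and 0.47. Their log2 fold changes were -1.27 and -1.22 for Colgalt2 without and with the score as a covariate, -0.51 in both fits for Tex15, -1.16 and -1.19 for Pla1a, and 0.59 and 0.61 for Pla2g5. Without the score these fold changes equal those the study printed, to the digits it gave. None was called in either edgeR fit (edgeR adjusted p from 0.901 to 0.903). The study had called them with DESeq, another test, at an adjusted p under 0.05. In this pair DESeq2 called 15 genes and edgeR 1, so the number called depended on the test. Whether the genes the study named were among those 15 is not given here, so the lack of an edgeR call does not go against the study. Col1a1, which carries the mutation in both Jrt groups, had a rho of 0.59 with the score. Between Jrt;Sost-ko and WT mice its log2 fold change was 0.68 ± 0.34 (SE) without the score and 0.87 ± 0.20 with it, and neither was called (edgeR adjusted p = 1.0 and 0.387).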

How the data were processed

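Tibia shaft RNA of 12 male mice, 4 per group, was sequenced. Per the study's methods and the submitters' processing notes, the authors demultiplexed with bcl2fastq 2.20, used STAR on paired-end reads against GRCm38, and ran Cufflinks, Cuffdiff and DESeq. The counting tool, its strand setting and the annotation release are not given in the sources used here. The authors deposited a matrix of raw counts per Ensembl gene without normalization. Rows for reads on no gene (9.54% to 11.2%) and ambiguous reads (0.602% to 0.674%) were left out of the totals.

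CPM, the score, rho and slopes were computed from the counts in Python 3.11.15 with a pseudocount of 1 CPM. Groups were compared in edgeR 4.0.16 (filterByExpr, TMM, quasi-likelihood fit, Benjamini-Hochberg adjustment, R 4.3.3), 1 pair of groups at a time, with DESeq2 1.42.0 as an alternative. The SE was the absolute log2 fold change over the square root of F. The edgeR fits and the rho and slopes were tested on simulated data. Positions are from GENCODE M21 (98.9% of the gene rows matched) and promoters from RefSeq. Total counts per mouse were 24366061 to 44418863, and intervals and errors cover these mice only.

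The genes, 37 gene lists and tests were chosen with earlier results of these data known. Genes were named by a fixed rule, namely the 5 score genes, the 10 highest and 10 lowest in rho, the 10 steepest followers each way, the 2 genes on each side of each threshold, up to 5 genes a list, Sost, Col1a1, Col1a2, the genes the study names, and any gene called. Eef1a2, Nrap, Txlnb, Pkia, H19, and some list members given to complete a count, were picked with their values in view. Other settings tried were thresholds, filters, pseudocounts, scalings, scores and left-out mice.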

Additional observations from a re-analysis of the deposited data

Results flagged for a closer look

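The highest and lowest mouse of each group was compared with its nearest neighbour for the score, the library measures and the shares of counts. The same was done for the summed gene lists and, singly, the score genes, Sost, Col1a1, Col1a2 and the genes the study names. Of 174 groups searched, 8 had a gap above Dixon's critical value for 4 mice. Chance alone marks about 1 group in 20, so that number is near what chance would give. Jrt;Sost-het mouse 4, the highest of its group in score, held 5 of the 8 gaps. Its mitochondrial share was 3.78% of the counts, with the next mouse at 1.68%. Its share of counts on genes that followed the score down was 14.5%, with the next at 16.7%. Its summed log2 CPM was 5.63 for the myogenic regulators and satellite cell genes (next 4.64), 4.92 for the neuromuscular junction genes (next 3.70) and 12.2 for the dividing-cell genes (next 12.4). In Jrt;Sost-het mouse 1 the summed immediate early genes were at 9.51 log2 CPM (next 9.35). In Jrt;Sost-het mouse 3 the summed cytosolic ribosomal protein genes were at 13.99 log2 CPM (next 13.8). In Jrt;Sost-ko mouse 2 the summed nuclear respiratory chain genes were at 11.6 log2 CPM, below the next mouse at 11.8. No cause of these gaps was tested.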

How the results depend on the processing

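The 830 genes up and 1247 genes down became 1474 and 2345 at a threshold on rho of 0.7 and 322 and 383 at 0.9. The genes down numbered 826 over totals without muscle genes, 592 with no centring on groups (55.7% of the genes that followed then went up, against 40.0%) and 771 with Pearson's r. Without the mice with epidermal transcripts, a setting added after seeing the data, the counts were 491 and 484. Leaving out each mouse gave 537 to 1163 genes up and 682 to 1726 down. No scaling turned the direction of a gene list. Dividing-cell genes down numbered 8 of 18 with no centring, and mitochondrial genes up 1 of 10 with Pearson's r.

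Leaving out each mouse, the score difference was 0.787 to -2.44 for Jrt;Sost-ko against WT, -0.238 to 2.07 for Jrt;Sost-het against WT, both of which turned sign, and -3.16 to -0.306 for Jrt;Sost-ko minus Jrt;Sost-het. The rho of the score with total counts was -0.0545 to 0.455 (-0.0455 without Jrt;Sost-ko mouse 3), with reads on no gene 0.0545 to 0.482, with ambiguous reads -0.836 to -0.482 and with genes that had a count 0.527 to 0.791. DESeq2 called 15 genes when Jrt;Sost-ko was compared with Jrt;Sost-het and 13 against WT mice, and without the count filter edgeR called 2 against WT mice. Leaving out each mouse gave 0 to 3 and 0 to 2 calls by edgeR. The log2 fold change of Tex15 between Jrt;Sost-het and WT mice ranged from -0.0506 to 0.162 over the left-out mice (-0.0123 without Jrt;Sost-het mouse 2, -0.0506 without WT mouse 4), and it was not called in any fit. The cause of these shifts was not tested. With 4 mice per group, low calls in Jrt;Sost-ko mouse 4 (29 counts of Ckm) limit the precision of the steepest slopes. No paired analysis was possible because the mouse numbers follow the order of the labels and tie no mice together across groups.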
